A study of Mus musculus with 8 samples.

Results

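The urea cycle genes of the liver and 3 genes of periportal amino acid breakdown, 10 genes in all, were taken by symbol from a table of raw counts for 25239 genes. They are Nags, Cps1, Otc, Slc25a15, Ass1, Asl, Arg1, Gls2, Hal and Sds. All 10 were found, and 9 passed the filter on low counts and were tested. The mice were adult males, and liver RNA of 4 knockout and 4 control libraries was sequenced. Knockout mice are labelled Zfp36l1 fl/fl Alb-Cre+, that is, both alleles of Zfp36l1 carry loxP sites and Cre recombinase is driven by the promoter of albumin, a hepatocyte gene. Control mice are labelled Zf36l1 fl/fl and have the genotype entry WT, so the loxP sites are shared by both groups while Cre is named for the knockout group alone. ZFP36L1 binds AU-rich stretches of mRNA and promotes their decay. The series title concerns hepatocyte senescence and alcohol-related liver failure, and no alcohol treatment is named for these 8 libraries. The labels give no strain and no age beyond adult, and do not say that each library came from its own mouse, so a p-value reflects only how far these libraries spread, which may be technical.

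The urea cycle turns ammonia and the nitrogen of aspartate into urea and is run mainly by hepatocytes near the portal vein. Its first steps lie in mitochondria, where NAGS makes the activator of CPS1, CPS1 makes carbamoyl phosphate and OTC makes citrulline, while the later steps by ASS1, ASL and ARG1 lie in the cytosol. GLS2, HAL and SDS release ammonia from glutamine, histidine and serine upstream of the cycle, and hepatocytes around the central vein capture remaining ammonia as glutamine.

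Zfp36l1 itself averaged 65.1 ± 8.97 CPM in knockout and 259 ± 47.9 CPM in control livers (SD, n = 4 each, as for every mean below). CPM are counts relative to the library total, adjusted with TMM, a scaling that assumes most genes to be alike. The log2 fold change of Zfp36l1 was −1.99 (SE 0.14, adjusted p = 0.000309), so 25.1% of the control level remained in whole liver. The labels do not say which exons lie between the loxP sites, and Gm26669 on the opposite strand shares 1672 exonic bases with the gene. The quasi-likelihood test of edgeR was used, the p-values were adjusted by the Benjamini-Hochberg method across 14861 genes, and the threshold was 0.05. Libraries held 104842873 to 140582588 counts. The 10 most abundant genes of each library took 19.1% to 21.0% of counts in knockout and 14.9% to 16.9% in control livers, and the part of this in the differences below was not tested. Summed CPM of 7 hepatocyte markers ranged from 93162 to 106040 in knockout and from 78597 to 86009 in control livers, ranges that did not overlap, with 0 of 7 genes past the threshold. Most of that sum was Alb, at 68173 to 75945 CPM in knockout and 54749 to 62345 CPM in control livers, while the means of Apoa1 and Serpina1a in knockout livers were 84.2% and 89.5% of control. Markers of other cells had summed ranges that overlapped between the groups. In knockout livers the sums were 154 to 222 CPM for endothelial cells, 80.7 to 223 CPM for macrophages, 275 to 431 CPM for stellate cells and 30.4 to 44.9 CPM for cholangiocytes, and in control livers they were 152 to 215, 104 to 140, 226 to 355 and 42.2 to 57.0 CPM for the same lists. Lymphocyte, neutrophil and pancreas markers summed to 2.63 to 5.13, 0.218 to 48.8 and 5.29 to 8.90 CPM in knockout livers and to 2.70 to 6.66, 0.179 to 7.76 and 5.99 to 7.49 CPM in control livers. The part of any of these cells in the differences below was not tested. Of these other markers 1 passed, Sox9 of the cholangiocyte list, at 5.17 ± 1.98 CPM in knockout and 11.7 ± 1.68 CPM in control livers (log2 fold change −1.18, SE 0.23, adjusted p = 0.0242). It missed the threshold without knockout 2, 3 or 4 or control 1 or 2 (up to 0.0745). The other markers of the cholangiocyte list, named here after their values were seen, lay on both sides of 0. Log2 fold changes were 0.10 for Krt19, 0.20 for Krt7, 0.41 for Cftr, −0.25 for Epcam and −0.24 for Spp1. All of these but Spp1 were at under 1 CPM. With a block for replicate number, 3 more cell type markers passed, the endothelial Lyve1 (log2 fold change 0.77, adjusted p = 0.0231), the T cell gene Cd4 (−0.74, adjusted p = 0.0235) and the hepatocyte marker Ttr (0.41, adjusted p = 0.0351), named here after their values were seen. In whole liver, fewer cells of a type and less RNA per cell cannot be told apart.

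The 10 genes spanned a wide range of levels. Counts per deposited gene length, scaled to 1 common total in each library (TPM), put Arg1 first with 2069 ± 117 TPM in knockout and 2128 ± 232 TPM in control livers. Cps1 followed with 1711 ± 206 TPM in knockout and 2092 ± 252 TPM in control livers. In control livers these were genes 61 and 62 of 25239 by mean TPM, while in knockout livers they were genes 58 and 70. Both lay far above the rest, since the lowest Cps1 value of any library, 1515 TPM, was above the highest Otc value, 524 TPM. Otc, at 377 ± 24.3 TPM in knockout and 489 ± 45.0 TPM in control livers, headed a middle group that overlapped from gene to gene over the 8 libraries. Asl came next with 426 ± 27.9 TPM in knockout and 437 ± 57.8 TPM in control livers, and Hal had 339.7 ± 21.4 TPM in knockout and 395 ± 61.3 TPM in control livers. Gls2 stood at 283 ± 14.6 TPM in knockout and 347 ± 23.3 TPM in control livers, and Slc25a15 at 231 ± 3.84 TPM in knockout and 275 ± 33.8 TPM in control livers. The order within this group was not fixed, with Otc above Asl in 3 of 8 libraries, although Gls2 was above Slc25a15 in all 8. Sds had 197 ± 58.9 TPM in knockout and 156 ± 41.5 TPM in control livers. Nags, the enzyme that makes only an activator, was lowest of the 9 tested genes at 69.8 ± 10.1 TPM in knockout and 92.1 ± 6.38 TPM in control livers, below Sds in all 8 libraries. Ass1 stood apart at 0.0478 TPM in knockout and 0.0520 TPM in control livers.

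**Figure D1:**
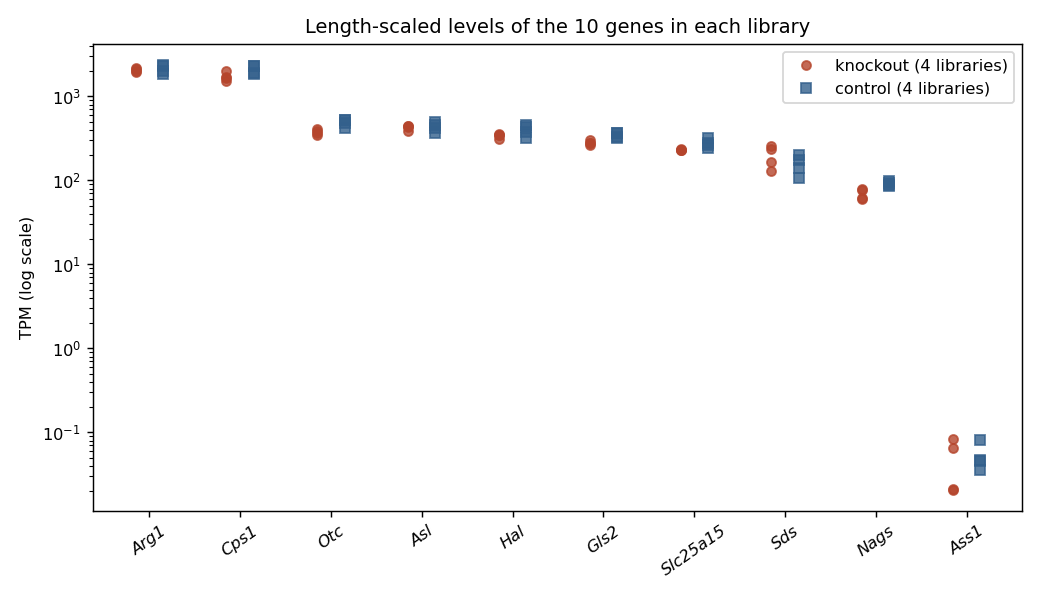
Length-scaled level (TPM, log axis) of the 10 genes in each of 4 knockout (circles) and 4 control (squares) libraries, ordered by control level. Arg1 and Cps1 lie between 1515 and 2355 TPM, 7 genes between 59.7 and 524 TPM, and Ass1 between 0.0208 and 0.0840 TPM.

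The near absence of Ass1 counts was shared by both groups. Ass1 (chr2:31470207-31520672, plus strand, mm10 with the GENCODE M21 annotation), whose enzyme joins citrulline and aspartate, had 6, 7, 2 and 2 counts in knockout livers 1 to 4 and 6, 4, 4 and 3 counts in control livers 1 to 4. Both groups summed to 17 counts, and the gene did not pass the filter. For comparison, Cps1 had 464975 to 700410 counts per library. Ass1 mRNA is abundant in mouse liver by textbook knowledge, so these counts are not taken as its level. A processed pseudogene, Gm5424 (chr10:62071123-62072362, plus strand), is identical to the Ass1 transcript at 1234 of 1240 aligned bases (99.52%). Of the 1647 stretches of 50 bases in the Ass1 transcript, 911 (55.3%) also occur in Gm5424, and of 1597 stretches of 100 bases, 622 (38.9%) do. Gm5424 was listed at 0 counts in all 8 libraries. The following 60 bases of coding sequence, which begin at coding base 369 and lie across an exon junction of Ass1 between chr2:31486494-31488585 and at chr10:62071491-62071550, show how alike the 2 sequences are. Capitals mark the 1 base at which they differ.
Ass1: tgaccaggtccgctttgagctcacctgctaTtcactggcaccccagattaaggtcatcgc
Gm5424: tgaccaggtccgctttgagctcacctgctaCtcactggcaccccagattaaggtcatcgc
How reads that match several places were counted is not given in the sources used here, and the part of the pseudogene in the low Ass1 counts was not tested. No statement on Ass1 in the knockout can be drawn from these counts.

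Among the mitochondrial members, Otc had the lowest adjusted p of all 9 tested genes, and 0 of these 4 genes passed the threshold. Otc (chrX:10252305-10321024, plus strand) had 378, 397, 403 and 353 CPM in knockout livers 1 to 4 and 514, 492, 437 and 424 CPM in control livers 1 to 4. Every knockout library lay below every control library. The means were 383 ± 22.2 CPM in knockout and 467 ± 43.3 CPM in control livers, 82.0% of control with a 95% interval of 72.0% to 93.4%. On the log2 scale this was −0.29 (SE 0.08, adjusted p = 0.0817). Exact permutation of the group labels on log2 CPM, two-sided, gave p = 0.0286, the smallest that 70 assignments allow. Groups that do not overlap always give this value. Apart from Gls2, described below, the other tested members had p from 0.0857 (Cps1 and Nags) to 0.771 (Arg1) in the same test. Swaps within same-numbered pairs, added after the data were seen, allow 16 assignments and an exact p no lower than 0.125, which Otc had, being lower in all 4 pairs. Over 16 other settings the adjusted p ran from 0.0228 to 0.192, and 3 of them called Otc lower, namely scaling by total counts, DESeq2 and limma voom with quality weights.

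Nags (chr11:102145513-102149477, plus strand), which makes the N-acetylglutamate that switches CPS1 on, had 74.4, 59.0, 70.2 and 54.7 CPM in knockout livers and 84.5, 86.0, 70.03 and 80.6 CPM in control livers. The groups touched, since control 3 lay within the knockout range. Its log2 fold change was −0.32 (SE 0.11, 95% interval −0.56 to −0.07, adjusted p = 0.132), or 80.4% of control. Scaling by total counts called it lower (adjusted p = 0.0370). Its exons share 443 bases with Gm11586 on the opposite strand, a gene with no row in the table, and without a known strand setting their reads cannot be told apart.

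Cps1 (chr1:67123026-67231259, plus strand), the rate-setting enzyme that fixes ammonia, had 3748, 4056, 4016 and 4816 CPM in knockout livers and 4447, 5221, 5016 and 4436 CPM in control livers. Knockout libraries 1 to 3 were below all control libraries, and knockout 4 was above controls 1 and 4. The mean was 4159 ± 459 CPM in knockout and 4780 ± 399.7 CPM in control livers, with a log2 fold change of −0.20 (SE 0.10, 95% interval −0.43 to 0.03, adjusted p = 0.295). The interval covers a level from 74.2% to 102% of control. Cps1 alone took 0.355% to 0.463% of all counts in knockout and 0.453% to 0.548% in control livers.

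Slc25a15 (chr8:22375551-22398597, minus strand), the carrier that exchanges ornithine and citrulline across the inner mitochondrial membrane, had 382, 389.6, 368 and 386 CPM in knockout livers and 443, 493, 383 and 389 CPM in control livers. The knockout libraries lay close together, and controls 1 and 2 lay above them. The log2 fold change was −0.16 (SE 0.09, 95% interval −0.36 to 0.04, adjusted p = 0.329).

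The cytosolic members Asl and Arg1 had nearly equal means in both groups. Asl (chr5:130011258-130029247, minus strand), which splits argininosuccinate into arginine and fumarate, had 362, 357, 337 and 304 CPM in knockout livers and 386, 313, 259 and 361 CPM in control livers. The knockout values lay within the control range. The log2 fold change was 0.04 (SE 0.12, 95% interval −0.23 to 0.32, adjusted p = 0.867), which leaves room for 85.3% to 125% of control. Arg1 (chr10:24915221-24927484, minus strand), which releases urea from arginine, had 1304, 1410, 1229 and 1404 CPM in knockout livers and 1426, 1419, 1062 and 1284 CPM in control livers. All 4 knockout values again lay inside the control range. Its log2 fold change was 0.04 (SE 0.11, 95% interval −0.19 to 0.28, adjusted p = 0.850). The sign of these 2 small differences turned without control 3, to −0.05 for Asl and −0.04 for Arg1.

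Of the 3 ammonia-releasing enzymes 0 passed, and the groups were apart for Gls2 alone. Gls2 (chr10:128194457-128210004, plus strand), the liver glutaminase, had 313, 297, 320.2 and 300.2 CPM in knockout livers and 385, 336, 357 and 344 CPM in control livers. As with Otc, the groups did not overlap. The means were 308 ± 11.04 CPM in knockout and 355 ± 21.3 CPM in control livers, 86.5% of control with an interval of 77.9% to 96.2%, and the log2 fold change −0.21 (SE 0.07, adjusted p = 0.110). The exact two-sided permutation p was 0.0286 over all assignments and 0.125, again the lowest possible, over swaps within pairs, and scaling by total counts (adjusted p = 0.0237) and DESeq2 (adjusted p = 0.0425) called it lower. Gls2 shares 97 exonic bases with Spryd4 on the opposite strand, a gene of 20.3 to 22.7 CPM in knockout and 17.8 to 22.4 CPM in control livers.

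Hal (chr10:93488768-93519304, plus strand), which removes the amino group of histidine, had 426, 382, 423 and 417 CPM in knockout livers and 511, 425, 489 and 379 CPM in control livers. The highest and the lowest libraries were both controls. The log2 fold change was −0.13 (SE 0.10, 95% interval −0.35 to 0.09, adjusted p = 0.491).

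Sds (chr5:120476526-120483932, plus strand), the serine dehydratase that feeds gluconeogenesis, had 66.7, 132, 82.5 and 119.7 CPM in knockout livers and 99.1, 66.6, 48.3 and 88.5 CPM in control livers. Knockouts 2 and 4 were the highest of the 8 libraries, while knockouts 1 and 3 lay among the controls. Its log2 fold change, 0.41, was the largest in size among the 9 tested genes but also the least certain (SE 0.27, 95% interval −0.22 to 1.03, adjusted p = 0.435), and limma voom with quality weights, which weighs libraries unequally, put it at 0.06. Sds exons overlap 360 bases of Plbd2 and 141 bases of Gm15690 on the opposite strand. Plbd2 had 74.3 to 88.3 CPM in knockout and 88.5 to 96.9 CPM in control livers, and reads from the shared stretch cannot be assigned to one strand here.

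**Figure D2:**
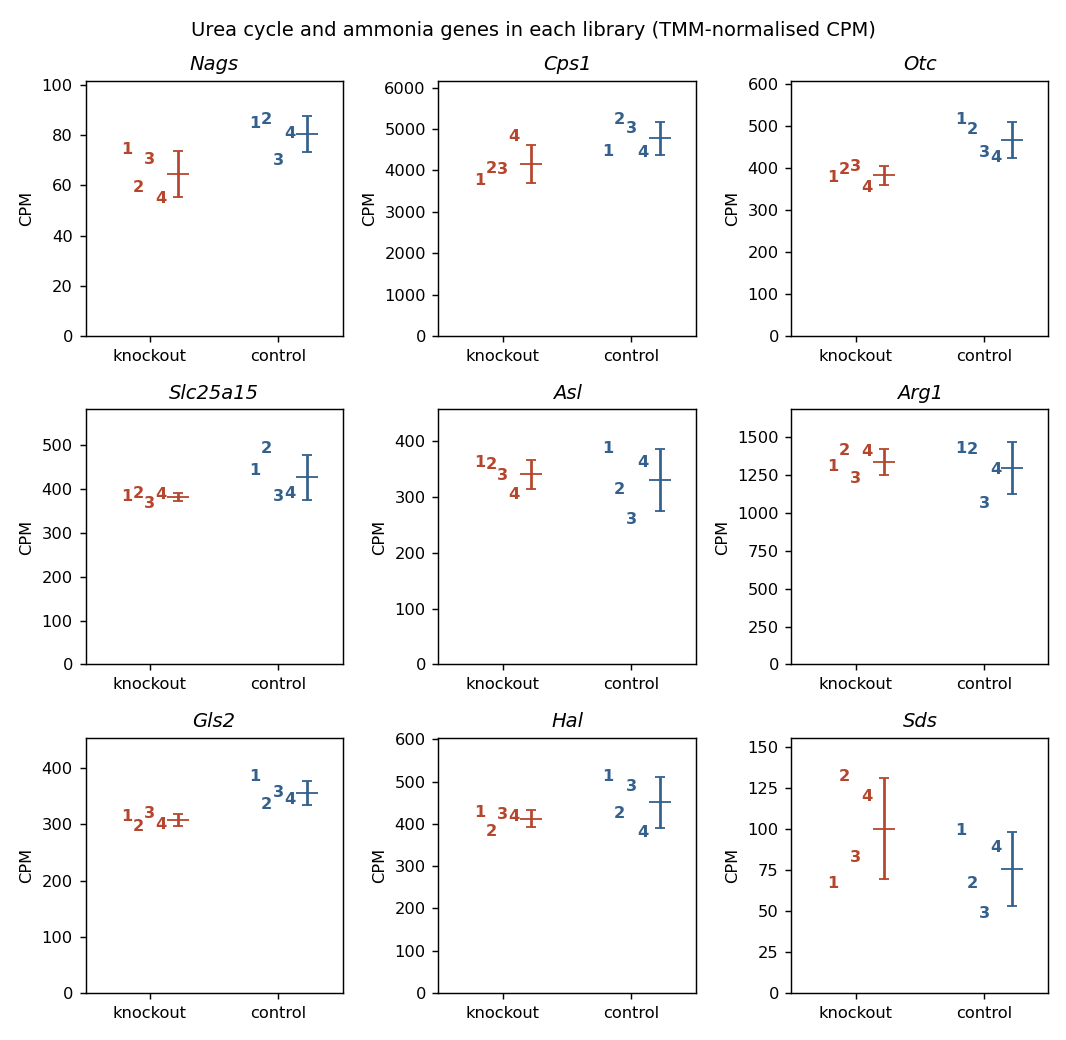
TMM-normalised CPM of the 9 tested genes, with each library drawn as its replicate number (knockout left, control right) and bars giving the mean and SD of 4 libraries. Knockout and control values do not overlap for Otc and Gls2, and Sds spreads most, from 48.3 to 132 CPM.

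Read over all 9 tested genes, 0 were called at an adjusted p under 0.05, against a background of 5.39% of the 14861 tested genes. By direction, the background was 3.51% higher and 1.88% lower. At an unadjusted p under 0.05, 3 of 9 were lower (Otc, Gls2 and Nags) and 0 higher, where 10.6% of all tested genes were lower. Non-overlapping groups with lower knockout values were found for 2 of 9 genes, Otc and Gls2, against 7.93% of all tested genes. With DESeq2's Wald test 2 of 9 were called lower against a background of 4.97%, with limma voom and quality weights 1 of 9 (Otc) against 4.06%, and with a block for replicate number 0 of 9 against 2.52%. The median log2 fold change was −0.16 over the 9 genes and −0.01 over all tested genes, and 6 of the 9 were negative.

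The count of called members moved with the scaling. With total counts in place of TMM, 3 of 9 were called lower (Gls2, Nags and Otc), against a background of 9% of all tested genes. That scaling moved the median of all genes to −0.12 and the median of the 9 genes to −0.28, so the members lay below the median of all genes by a similar amount either way. Over all tested genes, 392 were called higher and 1338 lower with total counts, beside 521 higher and 280 lower with TMM. The 10 genes together held 0.668% to 0.784% of all counts in knockout and 0.794% to 0.929% in control livers, ranges that did not overlap. Their summed CPM with TMM did overlap, at 7055 to 8156 in knockout and 7786 to 8851 in control livers. Much of each sum was Cps1, with 0.355% to 0.463% of all counts in knockout and 0.453% to 0.548% in control livers. Leaving out each library in turn gave 0 of 9 calls in all 8 fits, with the lowest adjusted p of any member between 0.0630 and 0.181.

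**Figure D3:**
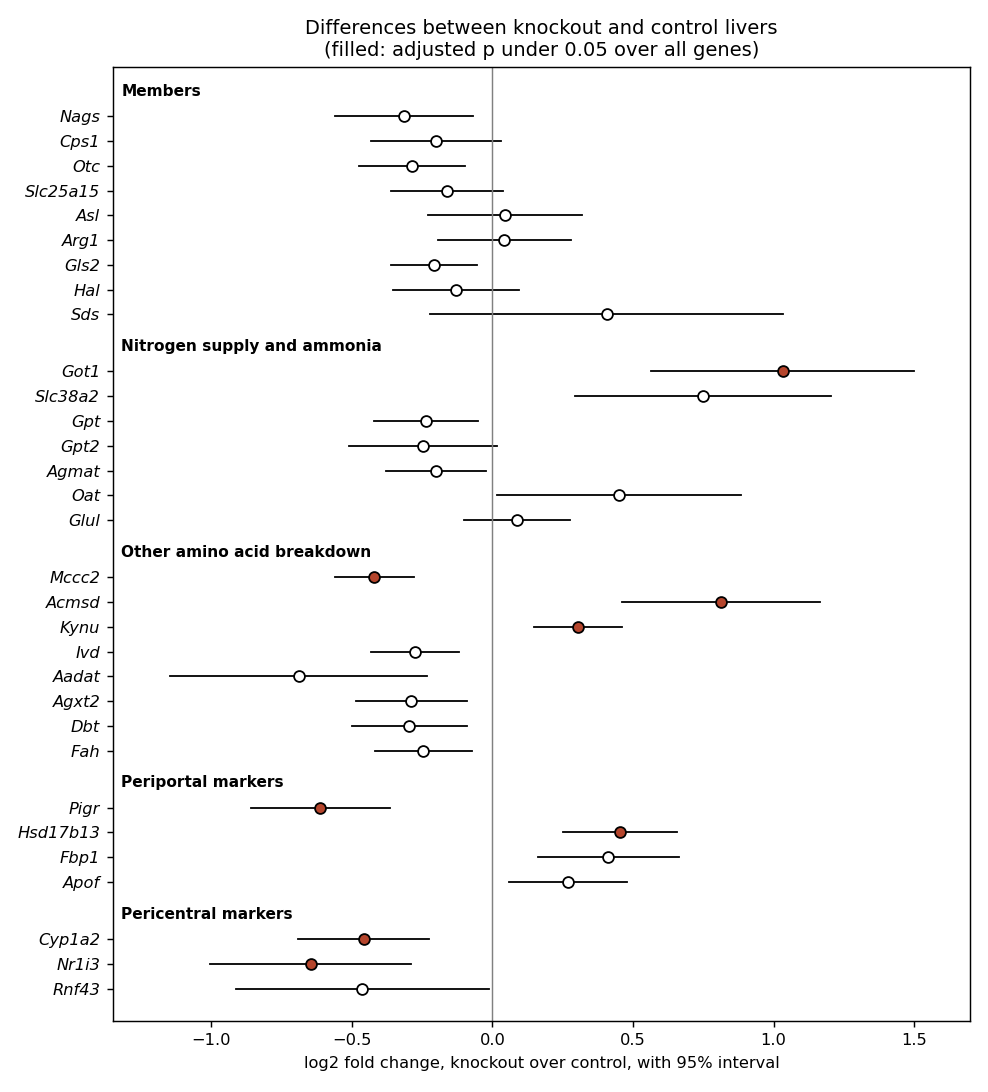
Log2 fold change, knockout over control, with its 95% interval (lines) for the 9 tested members and for named genes of the related lists, filled where the adjusted p over all genes was under 0.05. All 9 members are open circles, Otc, Nags and Gls2 with intervals wholly below 0, and the filled circles belong to Got1, Mccc2, Acmsd, Kynu, Pigr, Hsd17b13, Cyp1a2 and Nr1i3.

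Ratios between members of one library do not depend on how that library was scaled. Arg1, which differed little between the groups, was taken as the denominator after its values were seen, so the ratios are a description with no test. The TPM ratio of Otc to Arg1 was 0.160 to 0.209 in knockout and 0.210 to 0.262 in control livers. For Nags it was 0.0272 to 0.0399 in knockout and 0.0414 to 0.0460 in control livers, and for Slc25a15 it was 0.108 to 0.117 in knockout and 0.119 to 0.141 in control livers. These 3 of 8 ratios were lower in knockout livers with no overlap between the groups, which held for 5.73% of 14860 tested genes set against Arg1 in the same way. In CPM the groups overlapped for Nags and Slc25a15, while in TPM without the ratio they did not. Arg1 itself was lowest in control 3 (1062 CPM), which raises every ratio of that library. The lowest control ratios, next to the gaps, were in control 4 for Otc (0.210) and Slc25a15 (0.119) and in control 1 for Nags (0.0414). The part of Arg1 in these gaps was not tested. The ratio of Cps1, also mitochondrial, overlapped, with 0.763 to 0.911 in knockout and 0.828 to 1.25 in control livers, and so did that of Gls2, with 0.125 to 0.155 in knockout and 0.141 to 0.199 in control livers. For Asl the ranges nearly coincided, at 0.175 to 0.225 in knockout and 0.179 to 0.227 in control livers. The ratios of Hal and Sds overlapped as well.

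**Figure D4:**
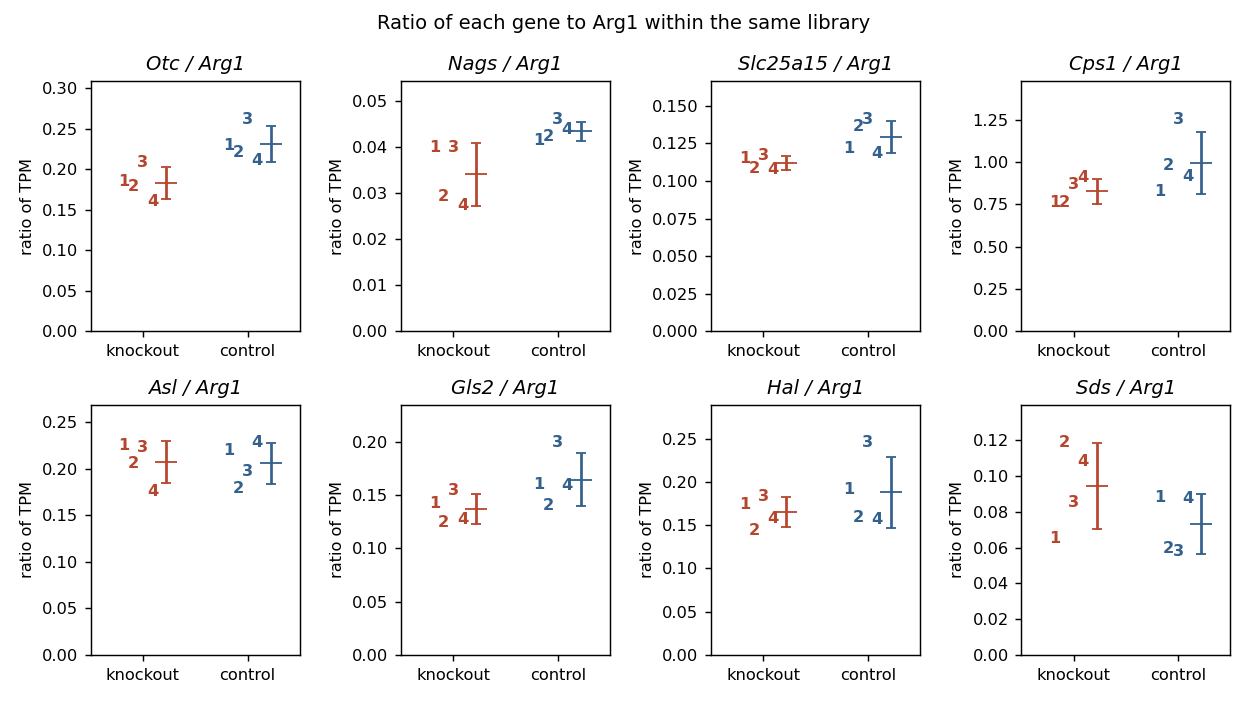
Ratio of the TPM of 8 members to the TPM of Arg1 in the same library, with replicate numbers as points (knockout left, control right) and bars for the mean and SD of 4 libraries. The ranges are apart for Otc, Nags and Slc25a15 and overlap for Cps1, Asl, Gls2, Hal and Sds.

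The members also differed in how steady they were within a group. Gls2 had a within-group SD of 0.0703 on the log2 scale, larger than that of only 11.7% of 7672 genes with a mean of at least 10 CPM, whose median was 0.129. Sds had 0.461, larger than 96.4% of them. The other 7 lay between 0.112 for Otc and 0.198 for Asl. Control 1 was the highest library for Otc, Asl, Arg1, Gls2 and Hal, control 2 for Cps1, Nags and Slc25a15, and knockout 2 for Sds. Control 3 was the lowest library for Asl, Arg1 and Sds.

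The genes whose pattern over the 8 libraries was most like Cps1, by the root mean square difference of centred log2 CPM among 7663 genes, were Trp53bp1 (0.0586), Slc30a7 (0.0596) and Rhobtb2 (0.0606). For Sds, the member with the largest fold change in size, they were Pim3 (0.176), Oat (0.202) and Ifrd1 (0.221). Sds and Pim3 shared high values in knockouts 2 and 4 and a low value in control 3. Pim3 had 40.4, 81.1, 47.5 and 65.0 CPM in knockout livers and 48.0, 42.8, 25.0 and 38.8 CPM in control livers.

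**Figure D5:**
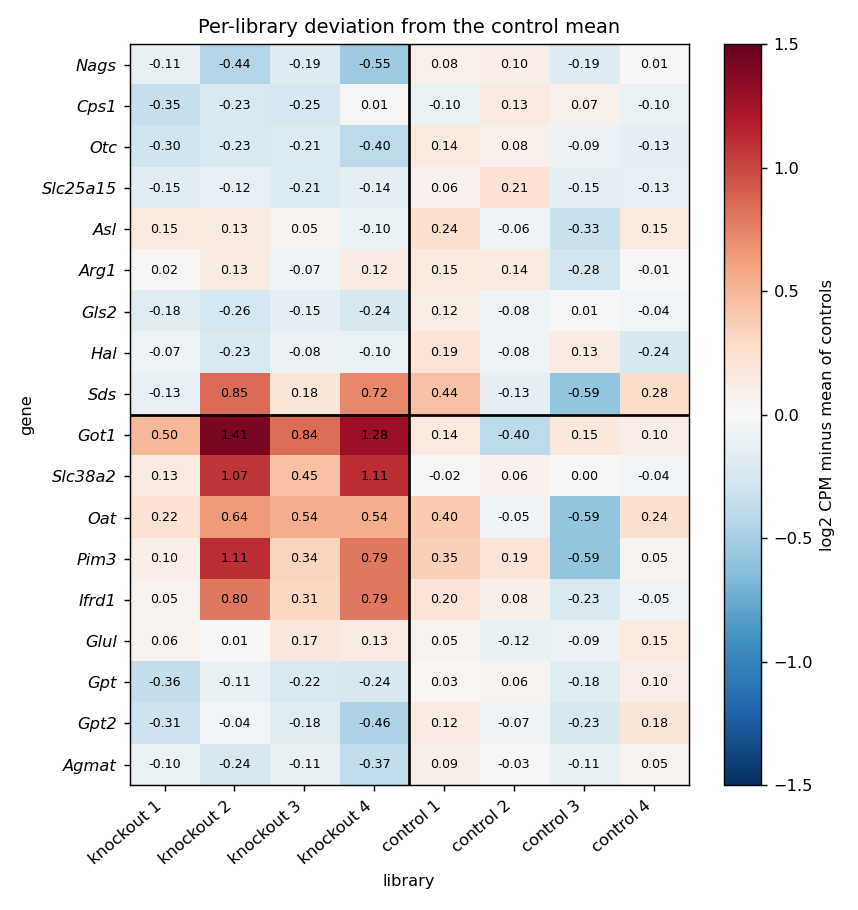
Log2 CPM of each library minus the control mean for the 9 tested members (above the line) and for genes of nitrogen handling and genes of a pattern like Sds (below it), with knockout libraries left of control libraries. Nags, Otc, Slc25a15, Gls2 and Hal are negative in all 4 knockout libraries, as are Gpt, Gpt2 and Agmat, and Sds, Got1, Slc38a2, Pim3 and Ifrd1 share their highest values in knockouts 2 and 4.

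Genes that bring nitrogen to the cycle or handle ammonia beside it were read from a list of 31, all tested. Of these 1 rose and 0 fell, and the list's median log2 fold change was 0.06, against −0.01 over all tested genes. The gene that rose was Got1, the cytosolic aspartate aminotransferase, which makes aspartate from oxaloacetate. It had 191, 357, 240.2 and 326 CPM in knockout livers and 148, 102, 149.8 and 144 CPM in control livers. All knockout values were above all control values, with knockouts 2 and 4 highest. Its log2 fold change was 1.03 (SE 0.21, adjusted p = 0.0266). Blocking on replicate number gave an adjusted p of 0.0820, and leaving out 1 library kept the call only without knockout 1 or control 3 (up to 0.0634 without control 1).

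Slc38a2, a glutamine and alanine transporter, had 149, 286, 187 and 294 CPM in knockout livers and 134, 142, 137 and 133 CPM in control livers. The groups did not overlap, but the knockout libraries spread widely, and the gene did not pass (log2 fold change 0.75, SE 0.20, adjusted p = 0.0679) unless knockout 1 was left out (adjusted p = 0.0245) or DESeq2 was used. Gpt and Gpt2, the alanine aminotransferases, had log2 fold changes of −0.24 (adjusted p = 0.133) and −0.25 (adjusted p = 0.259), and Agmat, which splits agmatine, had −0.20 (adjusted p = 0.175). Total counts called Gpt and Agmat lower, and Gpt also passed without control 3 (adjusted p = 0.0450). Glul, the pericentral glutamine synthetase that takes up ammonia escaping the cycle, averaged 1297 ± 66.4 CPM in knockout and 1220 ± 107 CPM in control livers (log2 fold change 0.09, SE 0.08, adjusted p = 0.588). Oat, which turns ornithine into glutamate, averaged 688 ± 82.8 CPM in knockout and 504 ± 138 CPM in control livers (log2 fold change 0.45, SE 0.19, adjusted p = 0.216). Its lowest value, 325 CPM, was in control 3, the library that was also lowest for Sds.

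Of the 5 paralogs of members, 0 passed. Arg2, the mitochondrial arginase, averaged 0.146 ± 0.0920 CPM in knockout and 0.0714 ± 0.0214 CPM in control livers (log2 fold change 1.04, SE 0.48, adjusted p = 0.252). Its counts were few in every library. Slc25a29 and Slc25a2, relatives of the ornithine carrier, averaged 1.61 ± 0.307 and 0.166 ± 0.0748 CPM in knockout and 2.49 ± 0.795 and 0.167 ± 0.0952 CPM in control livers. Their log2 fold changes were −0.63 (adjusted p = 0.188) and −0.02 (adjusted p = 0.988), and Slc25a29 passed without control 3 (adjusted p = 0.0428). Sdsl, a relative of Sds, averaged 7.01 ± 0.748 CPM in knockout and 7.83 ± 1.60 CPM in control livers (log2 fold change −0.16, SE 0.15, adjusted p = 0.590).

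Of 47 genes of other amino acid breakdown, 46 were tested, 2 rose and 1 fell, and the median log2 fold change was −0.08. Mccc2, a subunit of the carboxylase of leucine breakdown, fell to 53.9 ± 2.66 CPM in knockout, against 72.2 ± 2.78 CPM in control livers (log2 fold change −0.42, SE 0.06, adjusted p = 0.00817), and it passed under all 16 other settings. Acmsd and Kynu, both of the tryptophan pathway, rose. Acmsd averaged 20.9 ± 3.81 CPM in knockout and 11.9 ± 1.91 CPM in control livers (log2 fold change 0.81, SE 0.16, adjusted p = 0.0223), and Kynu averaged 222 ± 9.61 CPM in knockout and 180.1 ± 12.5 CPM in control livers (log2 fold change 0.30, SE 0.07, adjusted p = 0.0383). Acmsd missed the threshold without knockout 1, knockout 3 or control 1 (up to 0.0596), and Kynu missed it in all 8 fits that left out 1 library (up to 0.102) and with total counts (adjusted p = 0.117). Ivd, Aadat, Agxt2, Dbt and Fah had log2 fold changes of −0.28, −0.69, −0.29, −0.30 and −0.25 with adjusted p from 0.0521 to 0.0983. Ivd and Aadat were called lower with the replicate block (adjusted p = 0.0453 and 0.0199), DESeq2 and limma voom, and all 5 were called lower with total counts. Agxt2 and Fah were also called lower with DESeq2 and limma voom. Ivd and Dbt passed without control 4, Aadat without knockout 4 or control 3, and Fah without control 3. In all, the block called 3 genes higher and 3 lower in this list, Mccc2, Ivd and Aadat being the lower ones, and total counts called 1 higher and 8 lower.

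The urea cycle genes were set beside other genes of the same liver zone. Of 14 other periportal markers, 1 rose and 1 fell, and their median log2 fold change was 0.27, with 10 of 14 positive, against −0.16 for the 9 members. Hsd17b13, a lipid droplet dehydrogenase, averaged 305 ± 27.3 CPM in knockout and 222 ± 20.9 CPM in control livers (log2 fold change 0.45, SE 0.09, adjusted p = 0.0237). Pigr, the polymeric immunoglobulin receptor, averaged 1031 ± 116 CPM in knockout and 1575 ± 174 CPM in control livers (log2 fold change −0.61, SE 0.11, adjusted p = 0.017). Hsd17b13 missed the threshold without knockout 1, 2 or 3 or control 2 (up to 0.0596), and Pigr without knockout 1 or 3 or control 1 (up to 0.0573). Fbp1 of gluconeogenesis and the apolipoprotein gene Apof had log2 fold changes of 0.41 (adjusted p = 0.0648) and 0.27 (adjusted p = 0.134), and Fbp1 passed without knockout 4 (adjusted p = 0.0325). With the block, 3 were higher and 1 lower.

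Of 16 pericentral markers, which include Glul and Oat, 0 rose and 2 fell, with a median of −0.18. Cyp1a2, a cytochrome P450, averaged 616 ± 71.3 CPM in knockout and 846 ± 82.0 CPM in control livers (log2 fold change −0.46, SE 0.10, adjusted p = 0.0363), and Nr1i3, a nuclear receptor, averaged 67.2 ± 12.3 CPM in knockout and 105 ± 19.4 CPM in control livers (log2 fold change −0.65, SE 0.16, adjusted p = 0.0493). Leaving out 1 library kept the Cyp1a2 call only without knockout 4 (up to 0.114) and the Nr1i3 call only without control 4 (up to 0.122). Rnf43, a Wnt target, had a log2 fold change of −0.46 (adjusted p = 0.221). The members and both zonation lists were not tested against each other.

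Of 16 regulators of urea cycle genes, 0 passed in either direction, and the median log2 fold change was −0.00157, against −0.01 over all tested genes. At an unadjusted p under 0.05, 0 were higher and 1 was lower, Gcgr. Gcgr, the glucagon receptor, through which glucagon raises urea cycle enzymes, had 233, 236, 224 and 204 CPM in knockout livers and 272, 284, 250.3 and 279 CPM in control livers. The groups did not overlap. The difference on the log2 scale was −0.28 (SE 0.07, adjusted p = 0.0583), and total counts, DESeq2 and limma voom called it lower, as did the fit without control 3 (adjusted p = 0.0335). Cebpa, Foxa2 and Nr3c1, a CCAAT-binding factor, a forkhead factor and the glucocorticoid receptor, had log2 fold changes of 0.20 (adjusted p = 0.263), 0.36 (adjusted p = 0.341) and −0.16 (adjusted p = 0.377).

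Because ZFP36L1 binds AU-rich sequence, the annotated 3′ ends of the members were searched for the core TATTTAT, with T written for U, on the transcript's own strand. It was found in 2 of 10 members, Hal with 2 matches and Sds with 1, against 29.5% of 13667 tested genes. The searched lengths ran from 52 bases for Asl to 2982 for Hal, with a median of 1116 over the tested genes. The matches, in capitals, lie 889 and 1002 bases past the stop codon in Hal (chr10:93517200-93517228 and chr10:93517313-93517341) and 140 bases past it in Sds (chr5:120483907-120483932), all on the plus strand, and are shown because these members carry the letters that the protein is known to bind.
Hal site 1: atctatctaccTATTTATctgtctgtcac
Hal site 2: tatctacctacTATTTATctgtcacatac
Sds site: aaataaatataTATTTATagagcaaa
Of the 2 genes that carry them, Hal had a log2 fold change of −0.13 and Sds of 0.41, and neither passed the threshold. The deposited length of Hal, 2776 bases, is shorter than the 3′ end searched, 2982 bases. The counted Hal model may therefore lack its 2 sites. The 3 genes with the lowest adjusted p among the members, Otc, Gls2 and Nags, had 0 matches. A match is a description of letters and not of binding.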

How the data were processed

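Raw counts for each gene symbol in 8 liver libraries were deposited as 1 table, with a gene length column in bases, per the file headers. The genome build was mm10, per the submitters' processing notes. The sources used here do not name the aligner, counting tool, annotation or strand setting. RNA was extracted with an illustra QuickPrep kit and libraries were made with an NEBNext Ultra II RNA kit, per the labels' protocols. Columns were matched to samples by library name and groups were taken from the sample titles.

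Of 25239 genes, filterByExpr kept 14861 with 99.99% of counts. Counts were scaled with TMM and tested with edgeR 4.0.16 in R 4.3.3 (glmQLFit with robust estimation, glmQLFTest), with Benjamini-Hochberg adjustment over all tested genes, a threshold of 0.05 and 6 residual degrees of freedom before moderation. The common biological coefficient of variation was 0.204. Approximate standard errors were taken as the size of the log2 fold change over the root of the F statistic. TPM were computed from the deposited lengths. An exact permutation test over 70 assignments of log2 CPM, with a prior count of 2, was run for each member, and repeated with swaps within same-numbered pairs. The fit was tested on simulated data.

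A count of 3 in a library is worth 0.0213 to 0.0286 CPM, a floor that covers counting error alone. Of values from 1 to 20, 67.4% to 70.8% were even, so counts divided by 2 were also fitted. Libraries of 1 group differed by a chi-square of 82.8 to 370 per gene, well above sampling noise. Other settings were DESeq2 size factors, total counts, no filter, a filter of 1 CPM in 4 libraries, DESeq2 1.42.0, limma 3.58.1 voom with quality weights, the replicate block and each library left out, 16 in all.

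After subtraction of group means, same-numbered libraries correlated over genes at 0.165, 0.387, 0.306 and 0.402 for numbers 1 to 4. The numbers were therefore used to pair the libraries in the replicate block and in the swaps within pairs alone. The main fit and the permutation over all assignments compared the groups without this pairing. Adjusted p-values and background percentages are from that unpaired fit unless another setting is named. The labels do not say what a number stands for.

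The members and lists were chosen with earlier results of these data known. Lists share genes with each other: Glul and Oat stand in the nitrogen and the pericentral lists. Genes named are Zfp36l1, the members, their paralogs, Glul, Oat, the 8 lowest adjusted p of the nitrogen and breakdown lists, the 4 lowest of the periportal, pericentral and regulator lists, cell type markers past the threshold, and the 3 genes most like Cps1 and Sds. A gene that this rule names is not reported here. Of the hepatocyte markers 1, Tf, has no row under that symbol. Positions, overlaps and 3′ end sequences are from GENCODE M21 on mm10, taking the longest coding transcript of each symbol.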

Additional observations from a re-analysis of the deposited data

Results flagged for a closer look

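No member was among the flags, which mark 1 library far from the other 3 of its group (Dixon's gap over range at the 95% level). Among 94 groups of 4 libraries tested, 4 were flagged, where chance flags about 1 in 20. Got1 had 102 CPM in control 2, against 144 to 149.8 CPM in the other controls. Mccc2 had 76.3 CPM in control 1, against 70.2 to 71.2 CPM in the other controls. Acmsd had 9.05 CPM in control 3, against 12.5 to 13.1 CPM in the other controls. Aadat, an aminotransferase of lysine and tryptophan breakdown, had 74.8 CPM in knockout 4, against 48.9 to 52.1 CPM in the other knockout libraries.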

How the results depend on the processing

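Of the 9 tested members, 0 were called higher under any setting. Lower calls numbered 3 with total counts, 2 with DESeq2, 1 with limma voom and 0 elsewhere, leaving out single libraries included. The Arg1 log2 fold change was −0.0705 with total counts and −0.0422 with limma voom, and 8 fits without 1 library ranged from −0.0391 to 0.0932. Asl was −0.0674 with total counts, −0.0251 with limma voom and −0.0532 to 0.13 without 1 library. The permutation differences with total counts were −0.0632 for Arg1, −0.0562 for Asl, −0.44 for Nags and −0.27 for Slc25a15 (both exact p = 0.0286). Glul was −0.0230 with total counts. Slc25a2, at under 1 CPM, was 0.25 with limma voom and −0.24 to 0.43 without 1 library.

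The nitrogen list had 2 genes higher with DESeq2 and 2 lower with total counts and 1 lower with limma voom. Without 1 library it had 0 to 2 higher and 0 to 2 lower. The breakdown list had 1 gene higher with total counts, and 8 lower with total counts, 2 with the filter of 1 CPM, 5 with DESeq2 and 6 with limma voom. Without 1 library it had 0 to 1 higher and 1 to 3 lower. Periportal markers had 3 genes higher with DESeq2 and 2 with limma voom, and without 1 library 0 to 2 higher and 0 to 1 lower. Pericentral markers had 1 lower with DESeq2 size factors, without a filter and with limma voom, and 0 to 1 without 1 library. Regulators had 1 lower with total counts, DESeq2 and limma voom, and 0 to 1 without 1 library. The cause of these shifts was not tested.

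With the replicate number as a block, 0 members were called, the nitrogen list had 0 genes higher, the breakdown list 3 higher and 3 lower and the periportal list 3 higher, and Slc25a2 was at 0.0109. Swapping labels within pairs, an alternative chosen after seeing the data, left the permutation differences of Otc (−0.284) and Gls2 (−0.207) at exact p = 0.125, the lowest that 16 assignments allow. The block called 653 genes higher and 375 lower over the table. Depth did not limit the 9 tested members, which had at least 6742 counts in every library, while Ass1, at 2 to 7 counts, and Slc25a2 and Arg2, at under 1 CPM, were too low for firm statements.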
